A study of Mus musculus with 7 samples.

Results

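Neutrophils recovered from the peritoneal cavity of mice injected with IL-1β were compared with neutrophils of healthy blood. Both came from 1 droplet library of 5 conditions, in which the cells of each condition had been marked with a hashtag antibody before they were combined. Members were the cells that the deposited table of cells assigns to IL-1β peritoneum or to healthy blood and to an ImmGen reference class of granulocytes, whose names start with GN. This gave 292 of the 294 peritoneal cells and all 509 cells of healthy blood, together 801 of the 4856 cells in the library. The 2 peritoneal cells left out had been assigned to a class of B cells.

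All mice were male C57BL/6J animals, labelled WT. For peritonitis, mice aged 8 weeks received 25 ng of IL-1β in PBS by intraperitoneal injection, and the cavity was washed out with cold PBS after 3 h. Healthy blood came from untreated mice by cardiac puncture, and the age of the mice behind this pool is not given separately. Every cell had been sorted as a live CD11b+ Ly6G+ cell. The remaining conditions, used here as points of reference, were bronchoalveolar lavage 3 h after 25 ng of IL-1β given intranasally (IL-1β lung), and joint lavage and blood of mice with arthritis from transferred K/BxN serum (arthritic joint and arthritic blood). These mice were also aged 8 weeks, and serum was given on days 0 and 2 with the harvest on day 7. Each condition is 1 pool of 3 mice, so no difference between conditions could be tested and no p-value is given. Treatment, site and way of harvest all differ between the compared pools, and the library holds neither peritoneal cells of untreated mice nor blood of injected mice, so their parts cannot be told apart.

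IL-1β binds the IL-1 receptor and, through the adaptor MyD88, the IRAK kinases and TRAF6, activates the IκB kinases, which releases NF-κB dimers from their inhibitors. Genes of the inhibitors and of other brakes on the pathway are themselves NF-κB targets, so their transcripts are commonly read as a mark of pathway activity. Neutrophils leave the blood for an inflamed cavity within hours, guided by chemokines that bind CXCR2 and by integrins, and much of their granule protein has already been made in the bone marrow.

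To show the kind of sequence that NF-κB binds, windows of the promoters of 8 genes with high ratios are printed here in lower case, 5′ to 3′ on the strand of the gene, with 1 match of each to the NF-κB consensus in capitals. The 8 genes were chosen after their values were seen. All sequences and start sites are from RefSeq, build GRCm38.p6, and every window lies before a start site of RefSeq. For Nfkb2 that is an alternative start inside the gene, which runs from 46300994 to 46312400 on chromosome 19. Cxcl2 and Cxcl3 encode ligands of CXCR2 and lie in 1 cluster of chemokine genes on chromosome 5.
Cxcl2 (chr5:90903772-90903842, plus strand): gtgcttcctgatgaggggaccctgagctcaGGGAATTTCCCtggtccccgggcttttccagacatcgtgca
Cxcl3 (chr5:90785998-90786068, plus strand): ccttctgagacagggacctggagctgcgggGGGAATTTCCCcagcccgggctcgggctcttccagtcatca
Cxcl10 (chr5:92348953-92349023, minus strand): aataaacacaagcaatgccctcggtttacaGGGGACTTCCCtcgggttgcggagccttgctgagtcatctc
Nfkbia (chr12:55492648-55492706, minus strand): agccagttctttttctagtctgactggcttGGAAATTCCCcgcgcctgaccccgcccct
Nfkb2 (chr19:46304668-46304736, plus strand): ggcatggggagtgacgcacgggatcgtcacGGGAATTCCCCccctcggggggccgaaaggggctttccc
Rel (chr11:23771021-23771091, minus strand): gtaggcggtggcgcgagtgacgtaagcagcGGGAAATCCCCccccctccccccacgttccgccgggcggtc
Tnip1 (chr11:54962957-54963028, minus strand): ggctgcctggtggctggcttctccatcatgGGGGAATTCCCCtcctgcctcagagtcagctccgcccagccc
Sod2 (chr17:13007726-13007795, plus strand): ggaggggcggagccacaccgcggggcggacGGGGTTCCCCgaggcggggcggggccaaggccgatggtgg
Cxcl2 and Cxcl3 carried the identical run of 11 bases, beginning 97 and 73 bases before their start sites. Cxcl10 had matches at 159 and 104 bases, of which the second is printed. The printed match of Nfkbia began 29 bases before the start site. Nfkb2 had matches at 39 and 11 bases before the same alternative start, of which the first is in capitals, and 1 match before each of 2 starts further along the gene. The consensus was searched on both strands over 250 bases before and 50 bases after each start site, and overlapping matches were joined. It was found in 20.07% of the 294 matched genes that were at least 4-fold higher in peritoneum, in 18.05% of those at least 2-fold higher, in 11.43% of those within 2-fold, and in 15.57% of those at least 2-fold lower. Among all 1729 measured genes with a RefSeq window the share was 14.0%, and among all 27025 genes with a window it was 9.55%. A gene was counted if any of its windows matched. The 27025 genes have 32851 windows, and the part of window number in these shares was not tested. The AP-1 motif TGANTCA, searched in the same way, was present in 12.24%, 9.735%, 6.82% and 8.383% of these 4 groups of genes, in 7.924% of measured genes and in 8.973% of all genes with a window. The palindromic cAMP response element (CRE) was present in 2.041%, 3.009%, 4.213% and 0.5988% of the same groups, in 3.47% of measured genes and in 2.031% of all genes. The E-box of the circadian type, CACGTG, was present in 8.503%, 10.62%, 13.64% and 13.17%, in 12.61% of measured genes and in 8.093% of all genes. A match of letters is not a bound site, and genes of the same group are not independent of each other.

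The pools held 942688 UMIs in peritoneum and 1124877 in healthy blood, with medians of 3475.5 and 2527 UMIs and of 963.5 and 1077 genes per cell. Healthy blood had more shallow cells, with 155 of 509 cells under 1000 UMIs against 61 of 292 in peritoneum. All 15 markers of neutrophils had UMIs in both pools. Markers of monocytes and macrophages summed to 495 CPM in peritoneum and 191 CPM in healthy blood, with 8 and 7 of 13 markers seen. Adgre1, Ly6c2 and Csf1r had 148, 107 and 103 of the 367 UMIs in peritoneum and 50, 75 and 187 of the 318 in healthy blood, and Ccr2, C1qc and Mrc1 were at 0 in both. Of 9 markers of resident peritoneal macrophages 3 were seen in peritoneum and 4 in healthy blood, with sums of 18.9 and 14.4 CPM, mostly from Selp in peritoneum, and Gata6 and Timd4 were at 0. Of 8 mast cell or basophil markers, Kit had 14 UMIs and Cma1 2 in peritoneum, and none of the 8 had any in healthy blood. B-cell markers summed to 36.4 and 142 CPM, almost all from Ighm, with Cd79a and Cd79b at 0 in both pools. Of 8 mesothelial or stromal markers only Col1a1 was seen in peritoneum, with 2 UMIs, and none in healthy blood. The part of such cells in the results was not tested. Scgb1a1, which encodes a secretory protein of the airway, had 88 UMIs in the condition labelled IL-1β lung and 0 in both pools compared here. With the study's limits on cells, the deposited labels leave 287 peritoneal and 367 lung cells. The text of the study, read in the order it lists the pools, attaches these counts the other way round, and the deposited labels were used throughout.

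Levels are given as counts per 1000000 UMIs (CPM) on the scale of edgeR's TMM factors, which were 0.787 for peritoneum and 1.48 for healthy blood. Abundant transcripts took a larger share of the peritoneal UMIs. The 10 most abundant genes held 31.1% against 25.6% in healthy blood, and the 500 most abundant 77.8% against 65.7%. TMM is meant to allow for such a difference, and which scale is right was not tested. A ratio on the TMM scale is 1.88 times the ratio of plain shares of all UMIs, and values on that second scale are given where it matters. The intervals are exact 95% intervals for Poisson counts and for the ratio of 2 Poisson counts. Intervals of shares of cells are exact binomial intervals over the cells of 1 pool, which are not replicates. All of them cover counting error only and not the difference between mice. In summed counts of a pool, fewer cells with a transcript and less of it per cell cannot be told apart.

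Of 2139 genes with a mean over both pools of at least 50 CPM, 689 (32.2%) were at least 2-fold higher in peritoneum and 216 (10.1%) at least 2-fold lower. By shares of all UMIs and the same filter, 360 of 2324 genes (15.5%) were higher and 924 (39.8%) lower, so the direction of the typical gene depended on the scale. The median log2 ratio over the measured genes was 0.36 on the TMM scale and -0.56 by shares of the same genes, of which 377 were then at least 2-fold higher and 763 lower. There were 358 genes (16.7%) at least 4-fold higher and 40 (1.87%) at least 4-fold lower on the TMM scale. The 15 genes with the highest and the 15 with the lowest ratios, among genes with a mean of at least 100 CPM, stayed past 2-fold in the same direction on both scales. Their choice as extremes fixed this in advance, since the scales differ by a common factor of 1.88. Against healthy blood of run 2, 27 of the 30 stayed past 2-fold in the same direction. Against run 1 this held for 15 of the 22 present, and Zfp36l2 and Crebrf reversed.

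**Figure D1:**
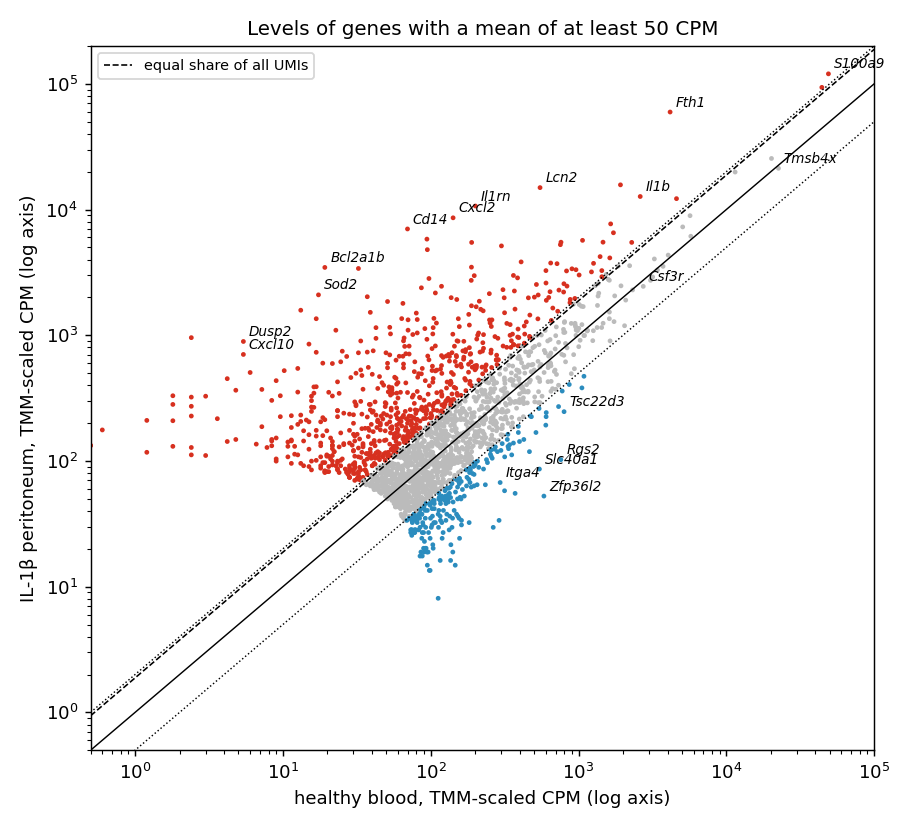
Level of each of the 2139 measured genes in IL-1β peritoneum (vertical, TMM-scaled CPM, log axis) against healthy blood (horizontal, same unit and axis), with genes at least 2-fold higher in red, at least 2-fold lower in blue and the rest in grey. The solid line marks equal levels, the dotted lines 2-fold and the dashed line equal shares of all UMIs, and a gene below 0.5 CPM is drawn at 0.5. Bcl2a1b, Cd14 and Cxcl2 lie far above the lines and Zfp36l2 and Rgs2 below them.

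Among genes with a mean of at least 100 CPM the 15 highest ratios were, in order, those of Bcl2a1d, Snai1, Bcl2a1b, Saa3, Dusp2, Olr1, Ikbke, Cxcl10, Sod2, Bcl2a1a, Ralgds, Nr4a3, Traf1, Gpr84 and Irg1. Their ratios ran from 398 for Bcl2a1d, which rests on 4 UMIs in healthy blood (interval 155 to 1466), to 105 for Irg1 (interval 80.0 to 139.8). Snai1, Saa3, Olr1 and Ralgds had 2 or 3 UMIs in healthy blood, so that their intervals are wide, for example 62.0 to 895 for Snai1. Saa3, an acute phase protein, was also uneven within the pool. When each cell was thinned to 1000 UMIs, 6 of 231 peritoneal cells had a UMI of it.

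The subunits of NF-κB and their inhibitors were higher throughout. All 11 genes of this list were measured and all were at least 2-fold higher (10 by shares of UMIs), with a median log2 ratio of 4.02, or 3.11 by shares. Over all measured genes 32.2% were at least 2-fold higher on the TMM scale. Nfkbia encodes IκBα, the inhibitor that is degraded and remade with each round of activation, and lies on chromosome 12 from 55489409 to 55492647 (GRCm38). It stood at 189 CPM in healthy blood, 5472 in peritoneum, 3351 in lung, 696 in the arthritic joint and 229 in arthritic blood. Peritoneum was the highest of the 5 conditions, and its ratio to healthy blood was 28.9 (interval 25.8 to 32.5). Nfkb2, which encodes the p100 precursor of the noncanonical pathway, was at 9.01, 435, 179, 36.1 and 15.9 CPM in the same order, a ratio of 48.3 (28.9 to 87.3). Its partner gene Relb had a ratio of 21.4. Nfkb1 (18.4), Rel (14.5), Nfkbie (26.0) and Nfkbib (16.2) lay in the same range, and so did the nuclear IκB proteins Nfkbiz (12.96) and Bcl3 (11.1). Rela, the main activating subunit, had a lower ratio of 3.88. Nfkbid had the lowest of the list at 2.45, which is 1.31 by shares, and was highest in the arthritic joint at 331 CPM.

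Genes of a list of feedback regulators of the pathway had similar ratios, and whether each is itself a target was not tested. Of 19 genes of this list 14 were measured and 13 were at least 2-fold higher on both scales, with a median log2 ratio of 3.89. The share over all measured genes was 32.2% on the TMM scale. Tnfaip3 encodes A20, a ubiquitin-editing enzyme that ends signalling. Its levels were 16.8 CPM in healthy blood and 1353 in peritoneum, with 486 in lung, 76.6 in joint and 19.3 in arthritic blood, and the ratio was 80.5 (55.3 to 122). Only the IL-1β conditions exceeded 100 CPM of Tnfaip3. Its binding partner Tnip1 had a ratio of 27.6, the inactive kinase Irak3 14.0, the ubiquitin ligase Birc3 13.4 and the RNase Zc3h12a, which degrades cytokine transcripts, 15.7. Tnip3 had 98 UMIs in peritoneum (132 CPM) and none in healthy blood, at least 73.3-fold higher when healthy blood is set to 3 counts, and 1 UMI in lung. Its UMIs came from few cells, with 9 of 231 thinned peritoneal cells positive. Ikbke and Traf1 were at 322 and 327 CPM in peritoneum against 2.40 and 3.00 CPM in healthy blood. Cyld, a deubiquitinase, was within 2-fold at a ratio of 1.88.

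**Figure D2:**
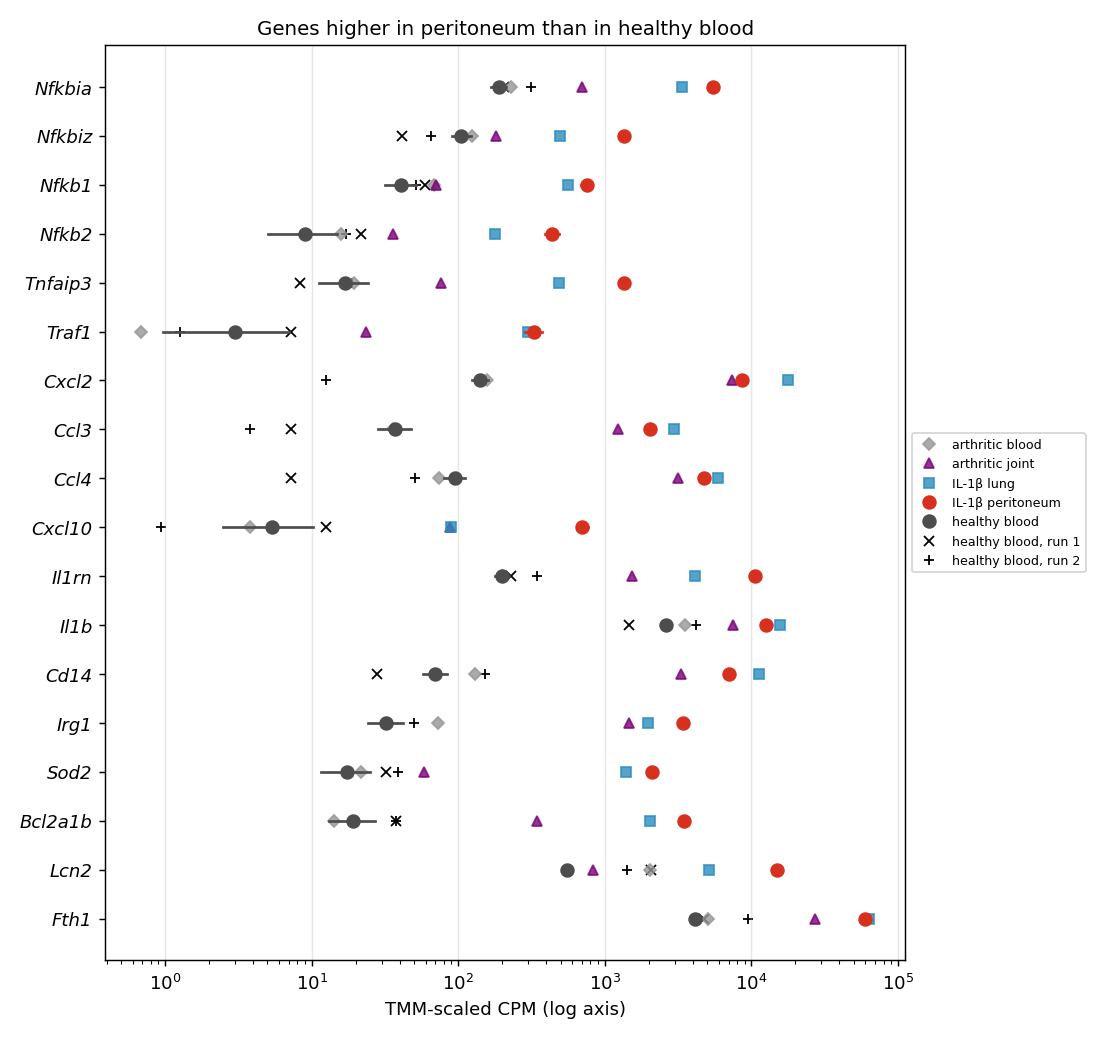
Levels (TMM-scaled CPM, log axis) of 18 genes in the 5 conditions of the library and in the healthy blood libraries of runs 1 and 2 (Cxcl2 and Irg1 have no value in run 1). Circles mark healthy blood (grey) and IL-1β peritoneum (red) with 95% counting intervals, which are hidden by the symbol for well counted genes. Peritoneum lies to the right of every blood pool for each gene, and lung exceeds it for Cxcl2, Ccl3, Ccl4, Il1b, Cd14 and Fth1.

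The higher level was spread over most peritoneal cells. To set the pools on an equal depth, 1000 UMIs were drawn from each cell that had as many (231 peritoneal and 354 healthy blood cells), and the UMIs of the 30 genes of these lists were summed in each. The median was 19 in peritoneum and 3 in healthy blood, with 9 in lung, 4 in joint and 2 in arthritic blood. In peritoneum 209 of 231 cells (90.5%, exact interval 85.9% to 93.9%) lay above 7, the 95th percentile of healthy blood, and 181 lay above 11, its highest cell. The distributions overlapped at the lower end, and 1 peritoneal cell had none of these UMIs. Nfkbia had a UMI in 88.3% of thinned peritoneal cells and 24.6% of healthy blood cells, and Tnfaip3 in 52.8% and 1.69%. Without thinning the shares were 92.1% and 35.8% for Nfkbia and 71.6% and 5.11% for Tnfaip3. All 5 conditions passed through the same droplet reaction and so share its free RNA, and the part of free RNA in these shares was not tested.

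**Figure D3:**
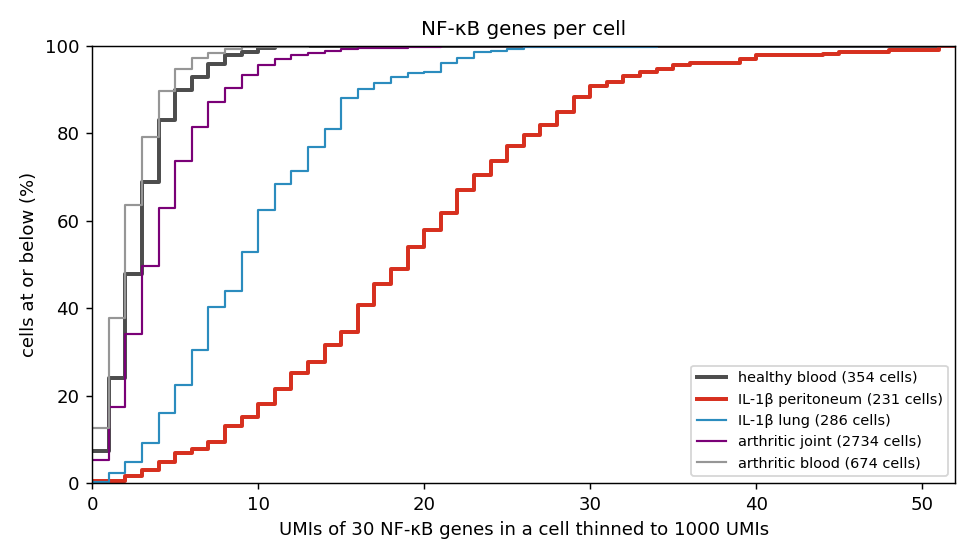
Cumulative share of cells (vertical, percent) with at most the number of UMIs of 30 NF-κB genes on the horizontal axis, after each cell was thinned to 1000 UMIs. The curve of IL-1β peritoneum (231 cells) lies to the right of the others from 1 UMI up, with a median of 19 UMIs against 3 in healthy blood (354 cells).

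All 7 measured genes of the IL-1 family and its receptors were at least 2-fold higher in peritoneum on both scales. On the TMM scale 32.2% of all measured genes were. Il1rn encodes the secreted antagonist of the IL-1 receptor and lies on chromosome 2 from 24336860 to 24351491. It was at 201 CPM in healthy blood and 10660.0 in peritoneum, and at 4139.6, 1533 and 198 CPM in lung, joint and arthritic blood. The ratio was 53.1 (47.6 to 59.5), and 94.8% of thinned peritoneal cells had a UMI against 23.7% of healthy blood cells (92.8% and 38.5% without thinning). Il1b itself was already abundant in healthy blood at 2613 CPM and reached 12693 in peritoneum, a smaller ratio of 4.86 (4.69 to 5.04). It was higher still in lung, at 15666 CPM. Il1r2, the decoy receptor, had a ratio of 8.10, and the coreceptor Il1rap 7.65. Il1f9, which encodes IL-36γ, was at 2303 against 308 CPM. Il1a had 87 UMIs in peritoneum and 2 in healthy blood (ratio 97.6, interval 26.2 to 819). Il1r1, the signalling receptor for IL-1, had no UMI in either pool, which allows up to 3 counts in each.

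Cd14, the coreceptor for lipopolysaccharide, was at 69.7 CPM in healthy blood, 7004 in peritoneum, 11223 in lung, 3339 in joint and 131 in arthritic blood. The ratio of peritoneum to healthy blood was 101 (83.6 to 122), and lung was the highest condition. Tlr2 (21.9), Tlr4 (5.32) and the kinase Map3k8 (25.1) were higher as well, and Myd88 had a ratio of 3.66, or 1.95 by shares. Traf6, the ubiquitin ligase below MyD88, had a ratio of 11.5. Of 13 measured genes of Toll and IL-1 receptor signalling 8 were at least 2-fold higher and 5 within 2-fold (5 higher and 2 lower by shares), among them Irak4 (0.792) and Tab2 (0.782). The C-type lectins of fungal and mycobacterial sensing followed the higher group, with Clec4e at 2731 against 188 CPM and Clec4n at 945 against 42.6 CPM. Their adaptor Fcer1g had a ratio of 3.02 and Tyrobp, another adaptor, 1.07 (0.567 by shares). The inhibitory receptor Fcgr2b had a ratio of 34.4, and Fcgr3 and Fcgr4 had 2.06 and 1.71. Over the list of Fc receptors, C-type lectins and their adaptors 13 of 22 measured genes were at least 2-fold higher and none lower (8 and 4 by shares). Both counts stand beside 32.2% higher and 10.1% lower among all 2139 measured genes, or 377 and 763 genes by shares.

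Chemokine transcripts reached some of the highest levels in the pool. Cxcl2 (chromosome 5, 90903899 to 90905938), a ligand of CXCR2, was at 142 CPM in healthy blood, 8590.2 in peritoneum, 17807 in lung, 7367 in joint and 157 in arthritic blood. Both IL-1β conditions and the joint lay far above both blood pools, and the ratio was 60.6 (53.2 to 69.3). Cxcl3 was at 51.0 CPM in healthy blood, 1854 in peritoneum and 11677 in lung, so the lung pool held several times the peritoneal level. Cxcl10, a ligand of CXCR3, showed the opposite order of the sites, with 703 CPM in peritoneum, 88.8 in lung, 88.3 in joint and 5.40 in healthy blood. It was also concentrated in few cells. Of 231 thinned peritoneal cells 32 (13.9%) had a UMI and of 354 healthy blood cells none (18.5% and 1.57% without thinning). The 23 cells with most held 91.5% of its 130 UMIs. Such a share is larger for a gene with few UMIs. It was 43.8% for Nfkb1, also with 130 UMIs, and 27.6% for Nfkbia, with 1034. Cxcl1 was too low to be measured, with no UMI in healthy blood and 17.5 CPM in peritoneum. Ccl3 and Ccl4, which attract monocytes and other leukocytes, were at 2024 and 4792 CPM in peritoneum and at 37.2 and 94.9 CPM in healthy blood, with ratios of 54.4 and 50.5. Ccl6, the CC chemokine most abundant in healthy blood, was at 3069 and 2733 CPM (ratio 0.890, and 0.473 by shares). Only these 3 of 13 CXC and 3 of 13 CC chemokine genes were measured, with medians of 5.92 and 5.66 on the log2 scale.

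Among other cytokines, Tnf was at 371 CPM in peritoneum against 7.21 in healthy blood (ratio 51.4, interval 29.0 to 101) and 106 in lung. Its receptor Tnfrsf1b had a ratio of 11.1 and the death receptor Fas 12.4, and Tnfrsf1a had 0.809. Of 6 measured genes of TNF ligands and receptors 4 were at least 2-fold higher and none lower (3 and 1 by shares). All 5 measured members of a list of further secreted cytokines were at least 2-fold higher, 3 of them also by shares. Ebi3, a subunit of IL-27 and IL-35, was at 698 against 52.8 CPM, and Tgfb1 at 689.9 against 149 CPM. Osm, a cytokine of the IL-6 family, was at 119 against 22.2 CPM but at 864 in lung, and its level in the healthy blood library of run 2, at 126 CPM, was close to that in peritoneum. Levels of the separate runs come from other libraries and were scaled by TMM to the hashtagged healthy blood. Ratios of peritoneum to a run use TMM factors fitted to that pair over the genes they share, so they differ a little from the ratio of the printed levels. Receptors for cytokines that restrain neutrophils, Il10ra (10.7) and Il4ra (7.00), and the shared receptor chain of GM-CSF, Csf2rb (6.60), were higher. Csf3r, the receptor for G-CSF, was at 2740.1 CPM in healthy blood and 2447 in peritoneum, a ratio of 0.893 on the TMM scale and 0.475 by shares. Of 15 measured cytokine receptor genes 8 were at least 2-fold higher and none lower, and by shares 4 were higher and 4 lower. Over all 2139 measured genes 32.2% were higher and 10.1% lower, and by shares 377 and 763 genes were.

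The receptors that guide neutrophils did not all differ in the same direction. Of 10 measured chemoattractant receptors 7 were at least 2-fold higher and none lower (5 and 2 by shares). Over all 2139 measured genes 32.2% were higher and 10.1% lower, and by shares 377 and 763 genes were. The formyl peptide receptors Fpr1 and Fpr2 had ratios of 11.4 and 8.80, the platelet activating factor receptor Ptafr 6.32 and the complement receptor C5ar1 4.34. Ccrl2, an atypical receptor that presents chemerin, was at 850.3 against 15.01 CPM. Cxcr2 was at 1343 CPM in healthy blood and 1726 in peritoneum (ratio 1.29, 0.684 by shares), so its direction depended on the scale, and lung was highest at 2660.4 CPM. Cxcr4, which holds neutrophils in the marrow, was at 701 and 372 CPM, a ratio of 0.531 (0.464 to 0.606), and at 2014 CPM in the arthritic joint.

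Of 16 measured adhesion genes 7 were at least 2-fold higher and 1 lower (6 and 4 by shares), where 32.2% and 10.1% of all measured genes were. Icam1, the ligand of the leukocyte integrins, was at 12.6 CPM in healthy blood, 544 in peritoneum, 239 in lung, 16.4 in joint and 8.63 in arthritic blood (ratio 43.2, interval 27.9 to 70.5). It was above 100 CPM in the IL-1β conditions only. Cd9 (7.39), Cd47 (5.30), Cd53 (3.997) and the hyaluronan receptor Cd44 (3.74) were higher. The subunits of the main neutrophil integrins, Itgam (1.33), Itgb2 (1.15) and Itgal (1.06), were within 2-fold. By shares they stood between 0.562 and 0.707. Itga4, a subunit of the integrin VLA-4, was among the 15 lowest genes, at 295 CPM in healthy blood and 67.4 in peritoneum, 4.38-fold lower (3.27 to 5.98). It was as low in lung and joint, at 55.4 and 63.1 CPM.

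Of 11 measured AP-1 and immediate early genes 9 were at least 2-fold higher and none lower (4 and 1 by shares). Batf (26.8) and Ier3 (27.6) had the highest ratios, Junb was at 3014 against 1009 CPM, and Fos was at 190.0 against 277 CPM (ratio 0.686). The orphan nuclear receptors Nr4a1 and Nr4a3 were at 1149 and 272 CPM in peritoneum against 42.6 and 2.40 CPM. Nr4a1 was 12.5 times the lung level of 91.7 CPM. Klf2, a factor of quiescence and migration, was at 961 CPM in healthy blood, 3320.2 in peritoneum and 616 in lung, so peritoneum lay above and lung below healthy blood. Of 8 measured KLF and NR4A genes 5 were at least 2-fold higher and Klf13 was lower, at a ratio of 0.362 (3 and 1 by shares). Cebpb, the factor of emergency granulopoiesis, was at 5495 against 761 CPM, Xbp1 at 928 against 94.3 and Mxd1 at 3247 against 829. Hmgb2, a chromatin protein of younger cells, was at 1088 CPM in healthy blood and 472 in peritoneum, a ratio of 0.433. It was the only gene at least 2-fold lower among 12 measured factors of granulopoiesis, of which 7 were higher (6 higher and 2 lower by shares). The counts of these lists stand beside 32.2% higher and 10.1% lower among all 2139 measured genes, or 377 and 763 genes by shares.

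Of 5 measured dual-specificity phosphatases 2 were at least 2-fold higher and 1 lower, too few to read against the 32.2% and 10.1% of all measured genes. Dusp2 and Dusp16, phosphatases that act on MAP kinases, were at 892 and 1096 CPM in peritoneum against 5.40 and 22.8 CPM, whereas Dusp6, which acts on ERK, was at 33.7 against 127 CPM (3.76-fold lower, interval 2.48 to 5.94). Dusp1 had a ratio of 1.98, or 1.05 by shares. Socs3 and Cish, inhibitors of JAK signalling, were at 2451 and 365 CPM against 118 and 4.80, and the kinase Pim1 at 3479 against 189 CPM (ratio 18.5). Cish was seen mainly in the IL-1β conditions, with 4.25 CPM in joint and 2.76 in arthritic blood. Of 9 measured genes of SOCS, STAT and PIM proteins 5 were at least 2-fold higher and none lower (4 and 2 by shares). Of 9 measured regulators of mRNA decay 5 were higher and 1 lower (3 and 2 by shares). Zfp36 was at 1984 against 458 CPM and Zfp36l1 at 637 against 97.3 CPM. Their relative Zfp36l2 (chromosome 17, 84183924 to 84187947), which also binds AU-rich transcripts, had the lowest ratio of the genes with a mean of at least 100 CPM, at 583 CPM in healthy blood and 52.6 in peritoneum.

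Genes of cell survival included the highest ratio among genes with a mean of at least 100 CPM. The paralogs Bcl2a1a, Bcl2a1b and Bcl2a1d encode the antiapoptotic protein A1 and are near copies of each other, so the split of reads between them is uncertain. They were at 1581, 3462 and 957 CPM in peritoneum against 13.2, 19.2 and 2.40 CPM in healthy blood. In lung they were at 695, 2046 and 517 CPM, and in joint at 42.5, 346 and 60.5. Bcl2a1b had a UMI in 74.0% of thinned peritoneal cells and in 2.26% of healthy blood cells (76.4% and 5.89% without thinning). Mcl1, the survival factor most abundant in healthy blood, was at 1627 and 4121 CPM (ratio 2.53, 1.35 by shares), Bcl2l1 at 11.4 and 144, and Cflar, which blocks caspase-8, at 67.9 and 713. The stress gene Gadd45b had a ratio of 29.0. The death-promoting Bcl2l11 was higher too, at 361 against 52.8 CPM. Of 10 measured genes of this list 9 were at least 2-fold higher and none lower (8 and 1 by shares), and Bid was at 0.540. Over all measured genes 32.2% were higher and 10.1% lower.

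Lcn2 (chromosome 2, 32384637 to 32387739) encodes the siderophore-binding protein lipocalin 2 of secondary granules. It was at 549 CPM in healthy blood, 14929 in peritoneum, 5167 in lung, 829.7 in joint and 2042 in arthritic blood, a ratio of 27.2 (25.4 to 29.1). Healthy blood of runs 1 and 2 lay at 2067 and 1430.2 CPM, above the hashtagged pool but far below peritoneum. Ltf and Camp, which mark the same granules in marrow precursors, were at 43.1 and 22.9 CPM in peritoneum. Ngp was at 131 against 12.0 CPM, but at 5162 and 1602 CPM in healthy blood of runs 1 and 2, so its direction reversed with those references. Of 9 measured secondary granule genes 7 were higher and none lower (5 and none by shares), but against healthy blood of run 1 the median log2 ratio of Secondary granule genes was near 0, at -0.0273, from 2.50. Ifitm6, also on this list, had a ratio of 7.67 and of 0.959 against run 1. It is 1 of a family of near copies, and its reads may be shared with them. Of 10 measured genes of the gelatinase granule list 6 were higher and 1 lower (4 and 2 by shares). The lower gene, Padi4, encodes a nuclear and cytosolic enzyme and not a granule protein, and Cd177 was within 2-fold of healthy blood of run 1, at a ratio of 0.983. In peritoneum and the hashtagged healthy blood, Retnlg was at 12204 and 4598 CPM and Mmp9 at 901 and 1634 CPM (ratio 0.552). Padi4, the enzyme that citrullinates histones, was at 87.6 and 183 CPM (ratio 0.478). S100a8 and S100a9, the subunits of calprotectin, were the most abundant transcripts of both pools. S100a9 was at 49009 CPM in healthy blood and 120028 in peritoneum (2.45, or 1.30 by shares). For S100a8 the ratio was 2.12, or 1.13 by shares, and it was below 1 against healthy blood of runs 1 and 2. Srgn, the proteoglycan that packs granule proteins, was at 1921 and 15712 CPM (ratio 8.18), and was the only measured gene of 10 on the primary granule list. Of 5 measured S100 genes 2 were at least 2-fold higher and none lower, with none past 2-fold by shares, where 32.2% of all measured genes were higher. Among antiproteases and stefins 6 of 9 were higher and none lower (4 and 2 by shares). Against healthy blood of run 2 the median log2 ratio of Antiproteases and stefins was -0.202, and Stfa1 and Wfdc17 reversed. The stefin genes Stfa1, Stfa2l1 and Gm5483 are near copies and their split is uncertain.

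Of 12 measured ferritin and antioxidant genes 6 were at least 2-fold higher and 2 lower (4 and 3 by shares). Over all 2139 measured genes 32.2% were higher and 10.1% lower, and by shares 377 and 763 genes were. The difference in CPM of Fth1 was second only to that of S100a9 on the TMM scale. By shares it was the larger of the pair, from 0.616% to 4.69% of all UMIs against 7.26% to 9.45% for S100a9. Fth1, the heavy chain of ferritin (chromosome 19, 9980600 to 9985111), was at 4162 CPM in healthy blood, 59618 in peritoneum, 63538 in lung, 27135 in joint and 5108 in arthritic blood. All inflamed sites lay above both blood pools, and the ratio was 14.3 (14.0 to 14.7). The light chain Ftl1 was at 4040.2 and 4338 CPM, a ratio of 1.07 (0.571 by shares). Slc40a1, which encodes the iron exporter ferroportin, was 6.30-fold lower (4.89 to 8.25), at 543 CPM in healthy blood and 86.2 in peritoneum. Sod2, the mitochondrial superoxide dismutase, was at 2095 against 17.4 CPM, 1405 in lung, 58.3 in joint and 21.8 in arthritic blood. Txnrd1 (32.2) and the cystine importer Slc7a11 (14.5) were also higher, whereas Gpx1 was at 0.464. Among 8 NADPH oxidase genes 4 were at least 2-fold higher and none lower (3 and 1 by shares), too few to read against all measured genes. The ratios were 5.68 for Cybb, 4.78 for Ncf1, 5.50 for Ncf4 and 2.19 for Rac2. Against healthy blood of run 2 Rac2 was at 0.968, and the median log2 ratio of NADPH oxidase subunits was -0.0304.

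Irg1, also called Acod1, makes itaconate and was at 32.4 CPM in healthy blood, 3396 in peritoneum, 1960.4 in lung and 1456 in joint. Of 4 measured genes of itaconate, arginine and polyamine metabolism 3 were at least 2-fold higher and none lower (2 and none by shares). Among genes of glycolysis and the hypoxia response, Pfkfb3, which raises glycolytic flux, was at 352 against 20.4 CPM, the glucose transporter Slc2a1 at 236 against 28.2 and Hif1a at 368 against 54.6. The enzymes Pkm (1.69), Ldha (1.38), Aldoa (1.30) and Gpi1 (0.702) were within 2-fold, and all 4 ratios are below 1 by shares. Over the list 8 of 20 measured genes were at least 2-fold higher and none at least 2-fold lower, with 7 and 5 by shares, where 32.2% of all measured genes were higher. Ptgs2, the inducible cyclooxygenase, was at 302 against 15.6 CPM, while the 4 other measured eicosanoid genes, among them Alox5 (0.512) and Alox5ap (0.804), were below 1 on both scales.

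Genes of antigen presentation included a few with high ratios at low levels. Cd274, which encodes PD-L1, was at 725 against 32.4 CPM (ratio 22.4), and Cd80 and Icosl had ratios of 7.24 and 5.80. Cd74, the invariant chain, was at 523 against 10.2 CPM, with a UMI in 23.4% and 0.847% of thinned cells (33.2% and 3.34% without thinning). Cd74 was at 1562 and 1033 CPM in healthy blood of runs 1 and 2 and its direction reversed against them. The class II genes H2-Aa, H2-Ab1 and H2-Eb1 had 1, 3 and 4 UMIs in peritoneum. All 4 measured genes of the class II and costimulation list were at least 2-fold higher. B2m and H2-K1 had ratios of 2.61 and 2.87, or 1.39 and 1.53 by shares, and reads of H2 genes may be shared between near copies. Of 12 measured class I genes 5 were higher and none lower (2 and 4 by shares). Over all 2139 measured genes 32.2% were higher and 10.1% lower, and by shares 377 and 763 genes were. Of 18 measured interferon-stimulated genes 11 were at least 2-fold higher and none lower (6 and 1 by shares), with Isg15 at 495 against 82.9 CPM. The joint had higher levels of Ifit1, Rsad2 and Isg15 than peritoneum, at 338, 861 and 789.7 CPM against 82.2, 252 and 495. Of 6 measured inflammasome genes 3 were at least 2-fold higher and 1 lower (3 and 2 by shares), among them Casp4 (19.2) and Nlrp3 (5.85), and Padi4, counted above as well, was the lower gene. Of 8 heat shock and unfolded protein genes 5 were higher and 1 lower (2 and 1 by shares), with Hspa5 at 5.37, and Ddit3 was lower at 0.426.

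All 28 genes of the cytoskeleton list were measured, with 11 at least 2-fold higher and 3 at least 2-fold lower (6 and 5 by shares), where 32.2% and 10.1% of all measured genes were. Marcksl1, a membrane substrate of protein kinase C, was at 94.3 CPM in healthy blood and 5814 in peritoneum (ratio 61.7), and its relative Marcks at 1064 and 5685. The actin regulator Vasp was higher, at a ratio of 6.11. Tmsb4x, the most abundant actin-binding transcript, was at 22506 and 21272 CPM (0.945), Actb had a ratio of 1.73 and Coro1a 0.863, and all 3 were below 1 by shares. Rhob (0.395) and Myo1f (0.419) were at least 2-fold lower on both scales, as was Myadm (0.370).

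**Figure D4:**
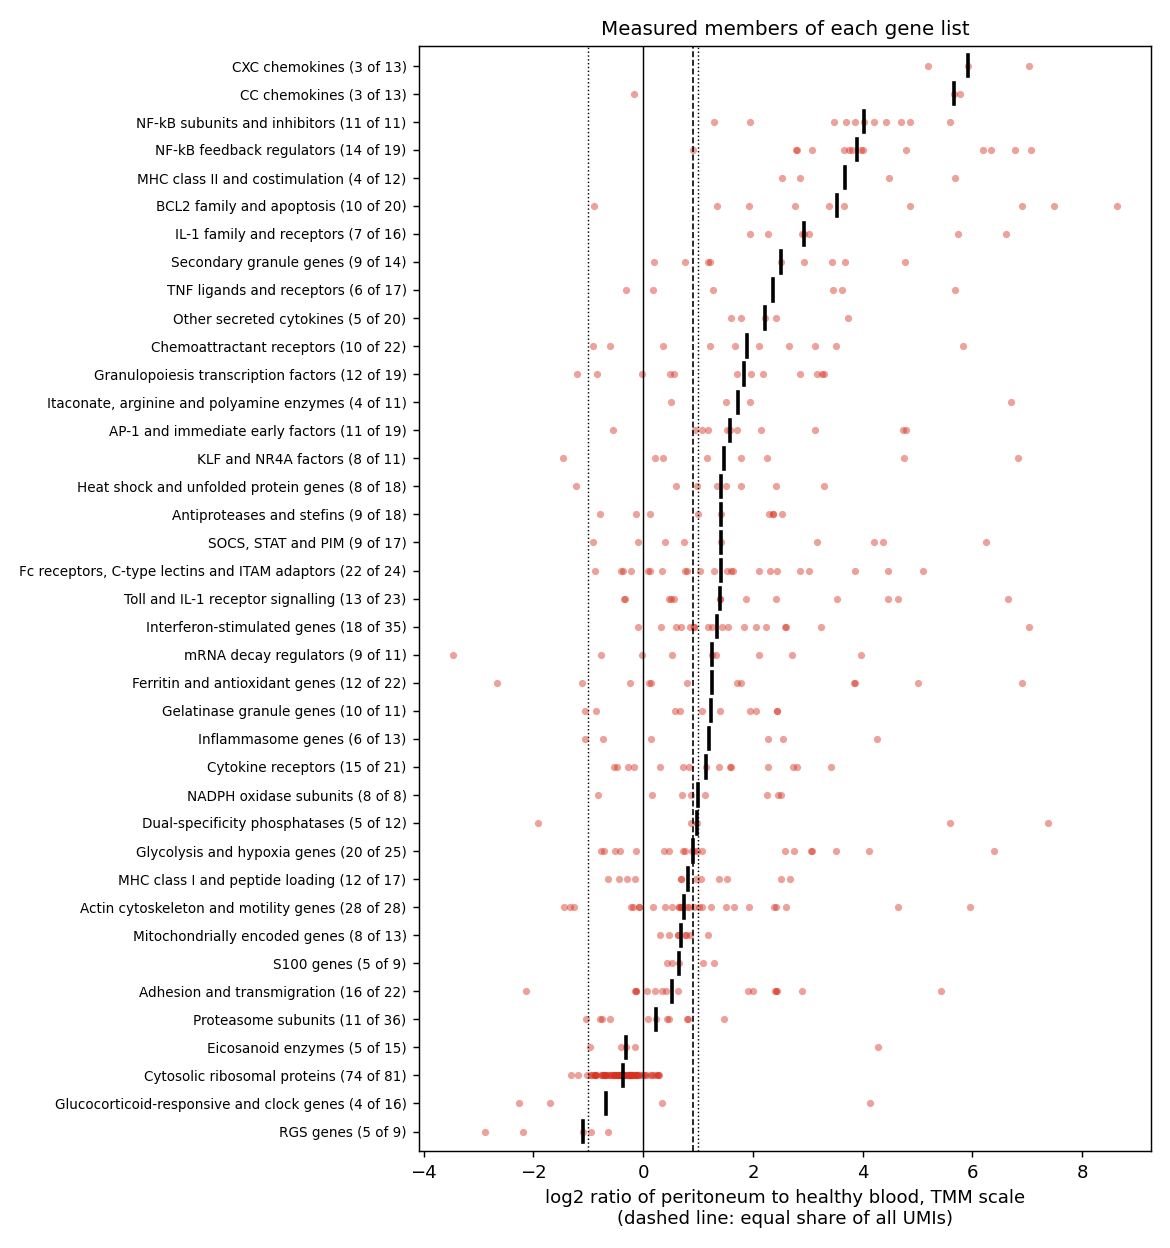
Log2 ratio of peritoneum to healthy blood (horizontal, TMM scale) for each measured member (points) of the gene lists with at least 3 measured members, with the list's median as a bar and the number measured of all members beside its name. The solid line marks equal levels, dotted lines 2-fold and the dashed line equal shares of all UMIs. Chemokines and NF-κB genes have the highest medians and RGS genes the lowest, at -1.10.

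On the TMM scale with the minimum of 50 CPM, fewer genes were lower than higher in peritoneum, and the reverse held by shares of all UMIs and with no minimum. Among genes with a mean of at least 100 CPM the 15 lowest were, in order, Zfp36l2, Hist1h1c, Rassf3, Rgs2, Arrdc3, Slc40a1, Rp9, D1Ertd622e, Itga4, Hmha1, Sephs2, Tsc22d3, Zfp652, Crebrf and Xpo6, from 11.1-fold to 3.18-fold lower. Zfp36l2 was at 583 CPM in healthy blood, 52.6 in peritoneum, 172 in lung, 798 in joint and 654 in arthritic blood. It was low in both IL-1β conditions and highest in the joint. A UMI of it was found in 59.3% of thinned healthy blood cells and 3.03% of peritoneal cells (69.0% and 9.25% without thinning). In healthy blood of run 2 it was at 473 CPM but in run 1 at only 18.7, so that its direction reversed against run 1. Rgs2, which shortens signalling of G protein-coupled receptors, was at 759, 102, 132, 635 and 882 CPM in healthy blood, peritoneum, lung, joint and arthritic blood, 7.41-fold lower (5.88 to 9.47). Runs 1 and 2 of healthy blood gave 725 and 773 CPM, close to the hashtagged pool. Of 5 measured RGS genes 3 were at least 2-fold lower and none higher, and all 5 were at least 2-fold lower by shares. Over all 2139 measured genes 10.1% were lower, and by shares 763 genes were.

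Tsc22d3, which encodes the glucocorticoid-induced protein GILZ, was at 798 CPM in healthy blood and 247 in peritoneum (3.24-fold lower), and Sgk1, another glucocorticoid target, at 103 and 21.6 CPM. Tsc22d3 was as low in lung, at 206 CPM. These are 2 of the 4 measured genes of a list of 16 glucocorticoid-responsive and clock genes, of which Bhlhe40 was higher, at 232 against 13.2 CPM, and Txnip within 2-fold. Arrdc3, an arrestin-like protein, was at 372 and 55.2 CPM. Rassf3, of the RAS association family, was at 290.0 and 33.7 CPM, and the linker histone gene Hist1h1c at 265 and 29.6. Of 74 measured transcripts of ribosomal proteins none was at least 2-fold higher and 3 were lower on the TMM scale, with a median log2 ratio of -0.37. By shares 61 of them were at least 2-fold lower, as were 763 of all 2139 measured genes. Over all measured genes 32.2% were higher and 10.1% lower on the TMM scale. Rpl36a, 1 of the 3 lower genes at a ratio of 0.491, reversed against healthy blood of run 1 (3.29). Of 8 mitochondrially encoded genes 1 was higher and none lower (none past 2-fold by shares). This gene, mt-Nd1, had a ratio of 2.28 and reversed against both runs, at 0.242 and 0.844. Of 11 proteasome genes 1 was higher and 1 lower (none and 4 by shares).

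**Figure D5:**
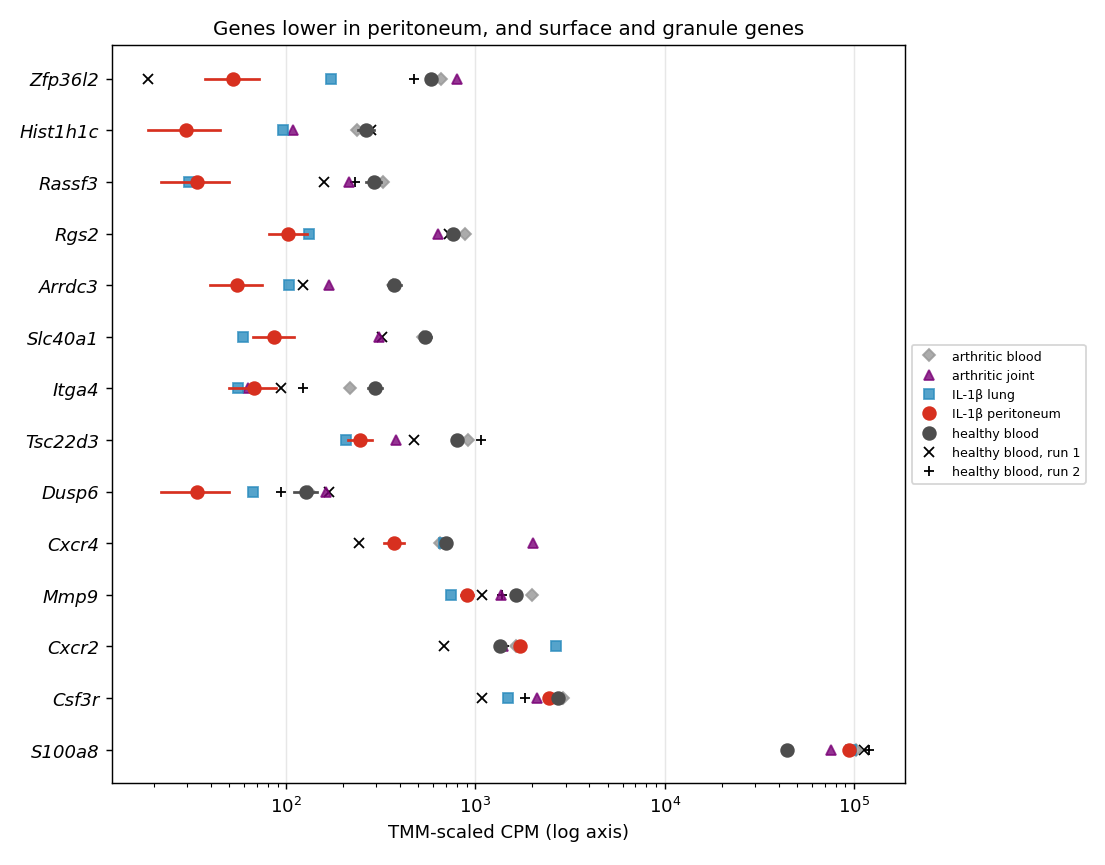
Levels (TMM-scaled CPM, log axis) of 9 genes lower in peritoneum and of 5 surface and granule genes, with the symbols of the plot of higher genes. The lung squares lie near the peritoneal circles for Rassf3, Rgs2, Slc40a1, Itga4 and Tsc22d3, and the run 1 cross of Zfp36l2 lies below peritoneum.

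The peritoneal pool was not uniform. Of the 292 peritoneal cells, 163 (55.8%, exact interval 49.9% to 61.6%) carried the class of thioglycollate-elicited peritoneal neutrophils, GN.Thio.PC, 101 (34.6%) that of arthritic synovial fluid, GN.Arth.SynF, 19 (6.51%) that of blood, GN.Bl, and 9 that of urate-elicited peritoneal neutrophils, GN.UrAc.PC. Of the 509 cells of healthy blood 353 (69.4%) had the class GN.Bl, 149 GN.UrAc.PC and 2 GN.Thio.PC. Only 7 of the 149 cells had 1000 UMIs or more. The classes were assigned from the same counts, so their differences in expression are a description. Among thinned peritoneal cells the NF-κB genes had a median of 22 UMIs in 107 cells of class GN.Thio.PC, 17 in 100 cells of class GN.Arth.SynF and 9 in 19 cells of class GN.Bl, against 3 in 344 GN.Bl cells and 5 in the 7 remaining GN.UrAc.PC cells of healthy blood. The classes differed in depth, since 107 of 163 peritoneal GN.Thio.PC cells but 100 of 101 GN.Arth.SynF cells had 1000 UMIs, and the part of depth in this order was not tested. Retnlg and S100a8 were highest in the peritoneal cells of class GN.Bl, at means of 22.4 and 135 UMIs per 1000, against 5.81 and 49.3 in those of class GN.Thio.PC. Ccl3 and Ccl4 were at 0 and 0.316 UMIs per 1000 in peritoneal GN.Bl cells and at 1.94 and 4.94 in GN.Thio.PC cells.

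The lung pool received the same dose of IL-1β for the same time, by another route, with 1 pool at each site. Higher in peritoneum than in lung were Nr4a1 (12.5 times, interval 10.1 to 15.7), Ikbke (8.23), Cxcl10 (7.92), Dusp2 (7.53), Batf (7.31), Klf2 (5.39), Tnip1 (5.07), Rel (3.65), Lcn2 (2.89) and Il1rn (2.58). Lower in peritoneum were Osm, at 0.137 times the lung level, Cxcl3 (0.159), Egr1 (0.161), Id2 (0.169), Plaur (0.214), Nfil3 (0.250), Adam8 (0.282), Il1r2 (0.301) and Cxcl2 (0.482). Fth1, S100a8, S100a9, Mcl1, Tlr2 and Il1rap stood within 1.1-fold of the lung level. These genes were picked from the lists by their values. The TMM factors of the 2 pools were 0.787 and 0.793, so ratios between them are nearly the same on both scales.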

How the data were processed

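UMI counts per gene and cell were deposited by the authors as raw whole-number matrices, made with Cell Ranger against mm10 per the submitters' processing notes. A deposited table of cells gave the hashtag condition and ImmGen class of each cell, together with cell cycle scores that the authors had computed and that were not used here. Bone marrow and spleen libraries were not used. The healthy blood libraries of runs 1 and 2 served as alternative references. They have no deposited ImmGen classes, so their cells were kept by markers. A cell needed at least 10 UMIs of neutrophil markers, and more than of any other cell type but preNeus. This kept 1461 of 1588 cells in run 1 and 3797 of 4653 in run 2. Ngp, Lcn2, Retnlg and S100a8 are among those markers. The paper gives an earlier droplet chemistry for these runs than for the inflammation library. UMIs of the member cells were summed per condition and scaled by TMM factors (edgeR 4.0.16 in R 4.3.3) over the 5 conditions. Ratios, exact intervals (scipy 1.17.1) and summaries were computed in Python 3.11.15. Each condition is 1 hashtagged pool, so no test was possible. A gene was measured where its mean over both pools was at least 50 CPM, and counted where the ratio was at least 2-fold. A pool at 0 UMIs was set to 3 counts.

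Named genes were the 15 highest and 15 lowest ratios with a mean of at least 100 CPM, up to 4 genes of each list, and genes fixed for their role. Some further genes were named after their values were seen. The members and lists were chosen with earlier results of these data known. Cells were thinned to 1000 UMIs for shares of cells and sums per cell. Doublets were not called here. The interval was tested on simulated data. Alternatives changed the scaling (DESeq2 1.42.0 size factors, total UMIs), the filter, the fold, the cells and the reference. Motifs and coordinates come from RefSeq GRCm38.p6, and 1729 of 2139 genes matched a promoter window. Values of a few genes are not reported here.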

Additional observations from a re-analysis of the deposited data

How the results depend on the processing

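The 689 genes at least 2-fold higher became 360 with total UMIs, 351 with total UMIs without ribosomal, mitochondrial and haemoglobin genes, 1550 with no filter and 457 with a fold of 3. The 216 genes at least 2-fold lower became 924 and 998 on those total scales, 363 with cells thinned to 1000 UMIs, 559 and 84 with minima of 20 and 100 CPM, 1999 with no filter, 412 and 75 with folds of 1.5 and 3, 427 with healthy blood of run 2, and 363 with UMIs per cell and no scaling, an alternative chosen after seeing the data. The median log2 ratio of measured genes was -0.69 with total UMIs, 0.17 with thinned cells and -0.01 per cell. The share of higher among called genes was 76.1% on the TMM scale, 28.0% with total UMIs, 62.3% with thinned cells and 57.6% per cell. Of the 30 genes at the ends, all 30 stayed past 2-fold in every setting that kept the hashtagged healthy blood, 27 against run 2 and 15 of the 22 present against run 1. With the hashtagged healthy blood this was largely fixed by their choice as extremes and is not a test of them. The choice of healthy blood mattered for most named ratios. Against run 1, 107 moved beyond their counting interval, 43 stayed within it and 9 that had been past 2-fold reversed, and against run 2 the numbers were 105, 61 and 8. List medians moved by 0.5 or more on the log2 scale for 19 lists against run 1 and 20 against run 2, without those that reversed. Directions reversed against run 1 for Cd177 (0.983), Cd74 (0.379), Crebrf (1.19), Ifitm6 (0.959), Ngp (0.0287), Rpl36a (3.29), S100a8 (0.935), Zfp36l2 (3.18) and mt-Nd1 (0.242). They reversed against run 2 for Cd74 (0.534), Ngp (0.0861), Osm (0.989), Rac2 (0.968), S100a8 (0.821), Stfa1 (0.870), Wfdc17 (0.466) and mt-Nd1 (0.844). The median log2 ratio of Secondary granule genes was -0.0273 against run 1. The median log2 ratio of NADPH oxidase subunits was -0.0304 and the median log2 ratio of Antiproteases and stefins was -0.202 against run 2. The cause was not tested. Leaving out a replicate was not possible with 1 pool per condition. No paired analysis was possible because each condition is 1 pool and the result comes from no test.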
